A study of Mus musculus with 2 samples.

Results

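The transcription factors that set up and maintain macrophage identity were examined in mouse peritoneal macrophages treated with LPS+CPN, with or without GGOH. The 9 genes were Spi1, Cebpa, Cebpb, Cebpd, Maf, Runx1, Mitf, Tfec and Bhlhe40. They were taken by symbol, as every probe set whose platform annotation gave exactly 1 of these symbols, which yielded 22 of the 34945 probe sets with 1 symbol. The cells, of C57BL/6J origin, were taken 3 days after an injection of thioglycolate, which irritates the peritoneum and recruits macrophages. There was 1 array for each treatment, and both cultures shared LPS and CPN. LPS is bacterial lipopolysaccharide, GGOH is geranylgeraniol, an isoprenoid alcohol, and CPN is known here by that abbreviation alone. The comparison asked which genes differ in signal when GGOH is added to LPS+CPN. A culture without LPS or CPN was not analysed here, and the doses, the treatment times and the number of mice per array are not stated in the labels.

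PU.1, the ETS-family protein encoded by Spi1, binds enhancers across the macrophage genome together with C/EBP proteins and RUNX1, and this shared binding makes those enhancers accessible to factors that respond to stimuli such as LPS. Cebpa acts mainly in myeloid progenitors, while Cebpb and Cebpd are inducible by inflammatory signals and drive cytokine and acute phase genes. Maf limits self-renewal and promotes genes of mature tissue macrophages, Mitf and Tfec belong to the MiT/TFE family that controls lysosomal and osteoclast-type genes, and Bhlhe40 represses genes such as Il10.

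With 1 array per treatment there is no replicate error and no test, so each difference describes these arrays. The pooled SD of log2 ratios among probe sets of 1 gene, called the probe-set SD here, was 0.45 over 4166 genes. It measures only how far probe sets of a gene disagree on the same 2 arrays. Differences between cultures, RNA samples or arrays that shift all probe sets of a gene alike are absent from it. The same value was used for bright and dim genes, and a ratio expressed in it is not a test of the treatment. A floor was set at the median of pooled non-control signals, 59.9, and lower signals were raised to it. A gene at the floor on 1 array counts as measured but has only a bound, and a gene at the floor on both is not measured. Of the 11518 measured genes, 9909 were above the floor on both arrays. Each gene took its brightest probe set, signals were otherwise used as deposited, and "2-fold" refers to a log2 ratio (LPS+CPN+GGOH minus LPS+CPN) of at least 1 in size. All 9 genes were above the floor on both arrays, as were 18 of the 22 probe sets. Another probe set was above it on 1 array and 3 on neither. Values were recomputed under 4 other scalings: median scaling (each array over its own median), quantile normalization, lowess, and marker scaling, which sets the median log2 ratio of 20 macrophage markers to 0.

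Cebpd and Tfec were past 2-fold, in opposite directions. Spi1, Cebpa, Cebpb, Runx1, Mitf and Bhlhe40 had log2 ratios between -0.46 and 0.08. Cebpd was higher with GGOH (3.14-fold), Tfec was lower (2.54-fold), and Maf was just short of 2-fold higher (1.91-fold). Thus 1 of 9 members was at least 2-fold higher, against a background of 5.50% of the 11518 measured genes, and 1 of 9 was at least 2-fold lower, against 1.66%. The members' median log2 ratio was -0.23, beside -0.01 over all measured genes. Of all measured genes, 74.1% lay within 0.5 of 0 on the log2 scale, and 6 of the 9 members did.

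**Figure D1:**
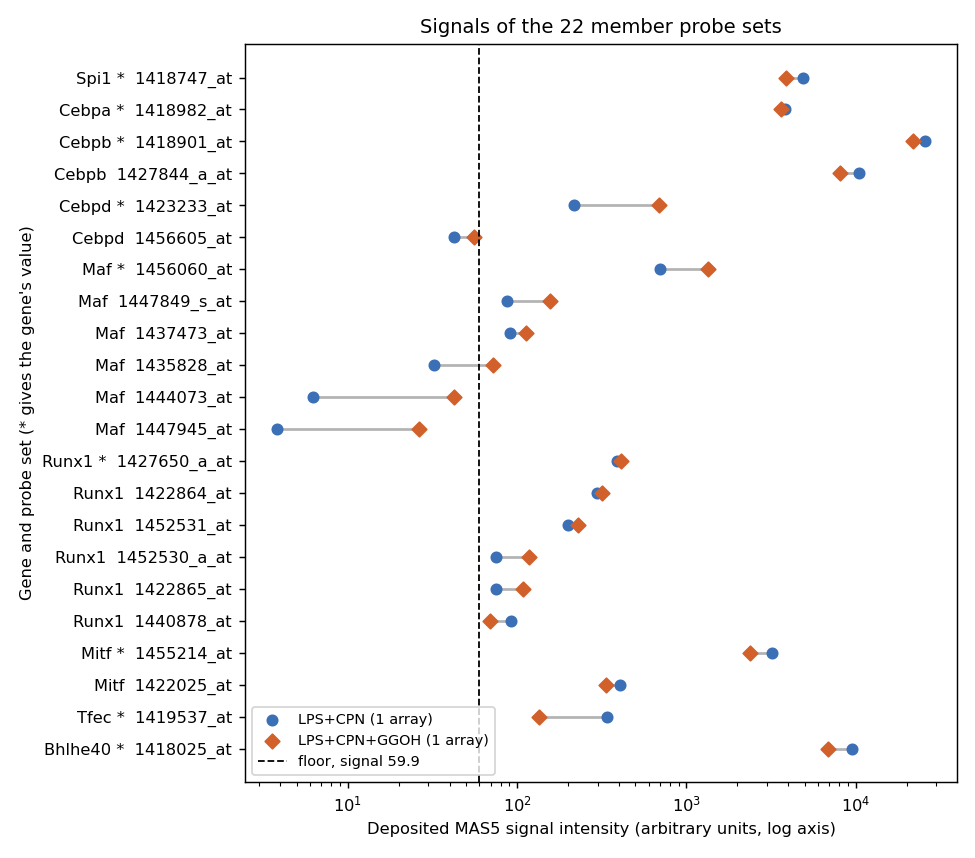
Deposited signal (log axis, arbitrary units) of each of the 22 member probe sets on the LPS+CPN array (circles) and the LPS+CPN+GGOH array (diamonds), with the floor at 59.9; 1 array per treatment, so no error bars. Pairs nearly coincide for Cebpa and the brighter Runx1 probe sets, while the Cebpd diamond lies to the right (218 to 685) and the Tfec diamond to the left (342 to 135); levels of different probe sets cannot be compared with each other.

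The promoters of some members carry letters recognised by other members, and those of Tfec and Runx1 are shown for that reason. RefSeq promoter windows (build GRCm38.p6) were matched for 5 of the 9 genes, Cebpa, Cebpb, Runx1, Mitf and Tfec, with 8 windows in all because Runx1 has several start sites and Mitf has more still. Spi1, Cebpd, Maf and Bhlhe40 had no entry. The 250 bases before each start were searched on both strands for a PU-box (GAGGAA), an ETS core (AGGAAG), a C/EBP site (TTGCNNAA), an E-box (CACGTG), a RUNX site (TGTGGT), a MARE half-site (TGCTGA) and a cAMP response element (TGACGTCA). The ETS core was added to the search after these windows had been read, and it can overlap a PU-box. A match is a description of the letters and not evidence of binding. Of the 8 member windows, 1 held a PU-box, 2 an ETS core, 1 a C/EBP site and 1 an E-box. A RUNX site was found in 2, a MARE half-site in 2 and a cAMP response element in 1. The shares among all windows are given below.

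The window of Tfec, the lowest member, held the ETS core at 71 and 32 bases before the start, on opposite strands. Across 32851 windows of the same length, 29.5% held at least 1 such core and 6.25% held 2 or more. Capitals mark these cores.
Tfec, chr6:16898442-16898691, - strand: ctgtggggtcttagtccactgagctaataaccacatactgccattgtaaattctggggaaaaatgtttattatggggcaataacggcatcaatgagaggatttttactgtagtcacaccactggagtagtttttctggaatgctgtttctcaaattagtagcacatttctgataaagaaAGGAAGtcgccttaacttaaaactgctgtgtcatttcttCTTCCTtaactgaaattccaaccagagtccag

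The distal window of Runx1 held an E-box, the letters that BHLHE40 and the MiT/TFE proteins recognise, 71 bases before the start, as did 6.02% of all windows, and an ETS core at 124 bases. Its proximal window held a PU-box on the opposite strand, 46 bases before the start, as did 23.3% of all windows. Capitals mark the ETS core and the E-box in the first sequence and the PU-box in the second.
Runx1, chr16:92826075-92826324, - strand: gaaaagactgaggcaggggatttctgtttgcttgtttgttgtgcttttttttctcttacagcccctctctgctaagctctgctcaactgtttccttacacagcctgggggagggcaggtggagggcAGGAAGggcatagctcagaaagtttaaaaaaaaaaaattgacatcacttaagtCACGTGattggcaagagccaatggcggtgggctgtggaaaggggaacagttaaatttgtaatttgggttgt
Runx1, chr16:92697330-92697579, - strand: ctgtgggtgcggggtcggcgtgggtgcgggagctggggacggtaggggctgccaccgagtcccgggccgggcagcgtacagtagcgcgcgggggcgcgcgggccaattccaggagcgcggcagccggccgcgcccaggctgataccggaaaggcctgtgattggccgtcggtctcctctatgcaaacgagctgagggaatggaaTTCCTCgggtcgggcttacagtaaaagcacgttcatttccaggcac

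One Mitf window, the farthest downstream of its 3, held a cAMP response element 153 bases before the start, found in 1.55% of all windows. It is printed because Mitf is, with Tfec, the other MiT/TFE gene among the members. Capitals mark that element.
Mitf, chr6:97991533-97991782, + strand: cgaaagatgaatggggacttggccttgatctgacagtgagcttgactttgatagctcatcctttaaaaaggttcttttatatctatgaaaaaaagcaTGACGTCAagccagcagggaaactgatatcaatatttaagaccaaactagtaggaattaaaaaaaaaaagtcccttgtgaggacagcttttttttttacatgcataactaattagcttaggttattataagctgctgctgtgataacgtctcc

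Another Mitf window, the most upstream, held a C/EBP site (9.56% of all windows) and both it and the Tfec window held a RUNX site (14.1% of all windows). A MARE half-site was found in that Mitf window and in the middle one (16.1% of all windows). The Cebpa and Cebpb windows held none of the 7 motifs. Which start site the array's Mitf and Runx1 probe sets report was not analysed here.

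Spi1, which encodes PU.1, was represented by 1 probe set (1418747_at). Its signal was 4860 with LPS+CPN and 3852 with LPS+CPN+GGOH, a log2 ratio of -0.34. This is smaller than the probe-set SD, and it was negative under each scaling tried (-0.50 to -0.12). Among all measured genes, 20.5% had a lower ratio.

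Cebpa was represented by 1 probe set (1418982_at). Its signals were 3819 with LPS+CPN and 3607 with GGOH, a log2 ratio of -0.08 that became 0.14 under marker scaling. Cebpb, the main LPS-inducible C/EBP gene of macrophages, had 2 probe sets, both slightly lower. The brighter one (1418901_at) read 25682 with LPS+CPN and 21927 with GGOH, a log2 ratio of -0.23. The other (1427844_a_at) read 10497 and 8096, a log2 ratio of -0.37. Both differences were smaller than the probe-set SD, and the gene's ratio stayed below 0 under each scaling, at -0.01 under marker scaling.

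Cebpd stood apart from its relatives. Its measured probe set (1423233_at) read 218 with LPS+CPN and 685 with GGOH, a log2 ratio of 1.65, which is 3.70 times the probe-set SD. Its second probe set (1456605_at) read 42.7 and 56.1, at the floor on both arrays, so the difference rests on a single probe set. The ratio was 1.49 to 1.87 under the scalings tried, and 97.6% of measured genes had a lower one. Under a floor at the 75th percentile, Cebpd was known only by a bound (at least 0.87 on the log2 scale). Among the 2879 measured genes with mean signals of 145 to 538, where Cebpd lies, 7.47% were at least 2-fold higher.

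Of the other C/EBP family genes that were measured, Cebpg, a partner without an activation domain, had a log2 ratio of -0.25 and Ddit3 (CHOP), the stress-induced member, -0.08. Each had another probe set of opposite sign, so that their ranges reached 0.71 and 0.49. Cebpe and Cebpz were not analysed here. Among 15 measured genes known as C/EBP targets, 3 were at least 2-fold higher and 0 lower, beside 5.50% and 1.66% of all measured genes. Their median log2 ratio was 0.10 and became -0.07 under median scaling. The genes past 2-fold were the cytokine genes Il6 (2.50) and Csf3 (at least 2.87-fold, at the floor with LPS+CPN), and the prostaglandin synthase gene Ptgs2 (1.19, and 0.37 on its other probe set).

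Fibroblast and mesothelial markers were far higher on the array with GGOH, and this touches Cebpd and Maf, which are also expressed in connective tissue cells. Of 16 such markers, 4 were above the floor with LPS+CPN and 15 with GGOH. At least 2-fold higher were 13 of the 15 measured, beside 5.50% of all measured genes. Their summed signal was 1541 with LPS+CPN and 31397 with GGOH. Among them were the extracellular matrix genes Col1a2 (log2 ratio 5.28), Sparc (4.83), Col3a1 (at least 25.9-fold) and Fbln2 (4.47). Log2 ratios of measured probe sets ranged from 0.88 to 5.83 for Col1a2, -0.21 to 6.03 for Sparc and 0.86 to 4.69 for Col3a1. Lum was at the floor on both arrays. Macrophage markers were all present, 20 of 20 above the floor on both arrays, with a summed signal of 414069 with LPS+CPN and 348830 with GGOH and a median log2 ratio of -0.22. Among them only Itgam, an integrin subunit, was at least 2-fold apart (1.05). The part of this difference in cell markers in the ratios of Cebpd, Maf and the other members was not tested. In RNA of a whole culture, fewer cells of a type and less RNA per cell cannot be told apart.

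**Figure D2:**
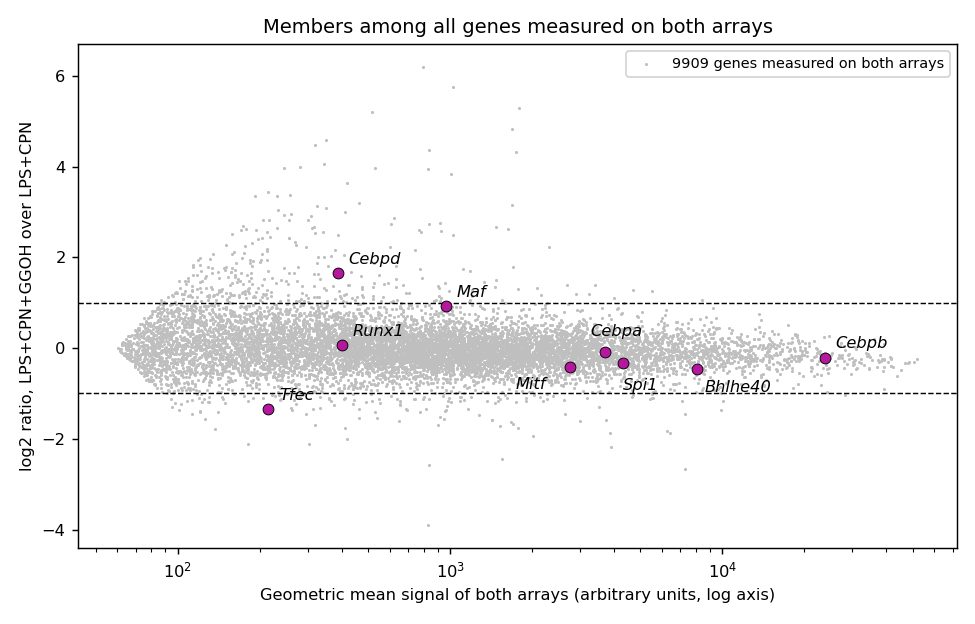
Log2 ratio of LPS+CPN+GGOH over LPS+CPN against the geometric mean signal (log axis) for the 9909 genes measured on both arrays (grey), with the 9 members named; dashed lines mark 2-fold. The 5 brightest members lie just below 0 with the bulk of bright genes, Cebpd lies above the upper line at 1.65, Tfec below the lower line at -1.34, and Maf touches the upper line at 0.93.

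Brightness matters for reading these ratios. Spi1, Cebpa, Cebpb, Mitf and Bhlhe40 were among the 2880 brightest measured genes, with mean signals of 1623 or more. Of these genes 0.66% were at least 2-fold higher and 1.22% lower, and their median log2 ratio was -0.11. The 5 members' own ratios, -0.46 to -0.08, lay between the 5th and 95th percentiles of that group, -0.67 and 0.44. Among the 2880 dimmest genes 12.1% were at least 2-fold higher, and no member fell there.

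Maf encodes c-MAF, a bZIP factor that binds MAF recognition elements. Its brightest probe set (1456060_at) read 699 with LPS+CPN and 1335 with GGOH, a log2 ratio of 0.93. The next (1447849_s_at) read 87.1 and 157, a ratio of 0.85. The third (1437473_at) read 90.6 and 113, a ratio of 0.32. All 3 probe sets measured on both arrays were therefore higher with GGOH, to different degrees. A further probe set (1435828_at) passed the floor with GGOH alone (32.6 and 72.3). The remaining pair read 6.26 and 42.7 (1444073_at) and 3.84 and 26.3 (1447945_at), under the floor on both arrays. As the median over measured probe sets the Maf ratio was 0.58. It ranged from 0.77 to 1.15 over the scalings, and passed 2-fold under marker scaling alone. Among the 2879 genes with mean signals of 538 to 1622, where Maf lies, 1.81% were at least 2-fold higher.

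The small MAF proteins, which lack an activation domain, did not share this direction. Maff had a log2 ratio of -0.69, Mafg -0.59 and Mafk -0.06 (0.16 under marker scaling). Nrl, a retinal factor, was at the floor on both arrays. Genes linked to MAF in resident-type macrophages had a median of 0.31 over 12 measured genes. Of these, 2 were at least 2-fold higher and 1 lower, beside 5.50% and 1.66% of all measured genes. The higher ones were the receptor genes Mrc1 (1.06) and Stab1 (1.03), neither of which passed 2-fold under median scaling, quantile normalization or lowess. The cytokine gene Il10, which c-MAF is known to activate and BHLHE40 to repress, was at least 2.69-fold lower, reading 161 with LPS+CPN and 22.9 with GGOH. Complement C1qa had a log2 ratio of 0.87, C1qb 0.36 and C1qc 0.26. Mertk (-0.73), Timd4 (-0.53) and Marco (-0.41, with 0.76 on its other probe set) went the other way. Of the 12 genes, 8 had a positive ratio and 4 a negative one.

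Runx1, a core-binding factor that opens myeloid enhancers, had 6 probe sets, all above the floor on both arrays. The brightest (1427650_a_at) read 389 with LPS+CPN and 411 with GGOH, a log2 ratio of 0.08. Then 1422864_at read 297 and 319, and 1452531_at read 201 and 228. The dimmer ones disagreed: 1452530_a_at read 75.6 and 119 (0.65), 1422865_at read 74.7 and 109 (0.55), and 1440878_at read 92.6 and 69.1 (-0.42). The 3 brighter probe sets thus differed by 0.08 to 0.18, and the larger values of both signs came from signals near the floor. The sign of the gene value depended on the scaling, at -0.09 under median scaling, -0.09 after quantile normalization and -0.01 after lowess. Cbfb, the partner subunit of RUNX proteins, had a log2 ratio of 0.02, and Runx1t1 was at the floor. The corepressor genes Cbfa2t2 and Cbfa2t3 had -0.29 and 0.52, the latter from signals near the floor (67.5 and 96.8). Each had another probe set of opposite sign, so that their ranges reached 0.11 and -0.08. The lymphoid-type relative Runx3 read 354 with LPS+CPN and 206 with GGOH, a ratio of -0.78, and its other probe set had -0.32. Runx2 was not analysed here.

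Mitf and Tfec were both lower with GGOH. Mitf read 3197 with LPS+CPN and 2383 with GGOH on its brighter probe set (1455214_at), a log2 ratio of -0.42. Its other probe set (1422025_at) read 406 and 337, a ratio of -0.27. Both are smaller than the probe-set SD. Tfec, whose expression is largely restricted to macrophages, had 1 probe set (1419537_at), which read 342 with LPS+CPN and 135 with GGOH. Its log2 ratio of -1.34 is 3.01 times that SD, and 0.50% of measured genes had a lower ratio. It was between -1.57 and -1.12 over the scalings and -1.05 with a pseudocount equal to the floor. Tfec was not measured on either array once the floor was raised to the 75th percentile. Beside the macrophage markers, which were lower by a median of 0.22 on the log2 scale, Tfec was lower by a further 1.12.

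The whole MiT/TFE family lay below 0, though Tfec alone passed 2-fold. Of all measured genes 51.4% had a negative log2 ratio, and so did 15 of the 20 macrophage markers. Tfeb, the regulator of lysosome formation, read 1119 with LPS+CPN and 830 with GGOH (-0.43, smaller than the probe-set SD). Tfe3 read 2321 and 1562 (-0.57), and each of these genes rested on 1 probe set. The median of the 4 genes was -0.50, and it ranged from -0.67 to -0.28 over the scalings. Genes known as MITF and TFE targets showed none past 2-fold among 17 measured, beside 5.50% higher and 1.66% lower of all measured genes. Most of these targets were among the 2880 brightest genes, where the shares were 0.66% and 1.22%. The median of the targets was -0.19 (-0.003 under marker scaling). Ctsb had a gene value of -0.41, but its 5 probe sets ranged up to 1.20. Gpnmb, a lysosomal glycoprotein gene, had a log2 ratio of -0.61, and the osteoclast receptor gene Oscar was at least 1.62-fold higher, from a signal at the floor. Of the pigment cell targets, Tyr, Mlana and Trpm1 were at the floor on both arrays. Pmel read 72.9 with LPS+CPN and 69.2 with GGOH, just above the floor. Dct read 68.2 and 6.24, above the floor with LPS+CPN alone. Mast cells are another cell type that relies on Mitf, and 0 of 13 mast cell and eosinophil markers were above the floor on either array.

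**Figure D3:**
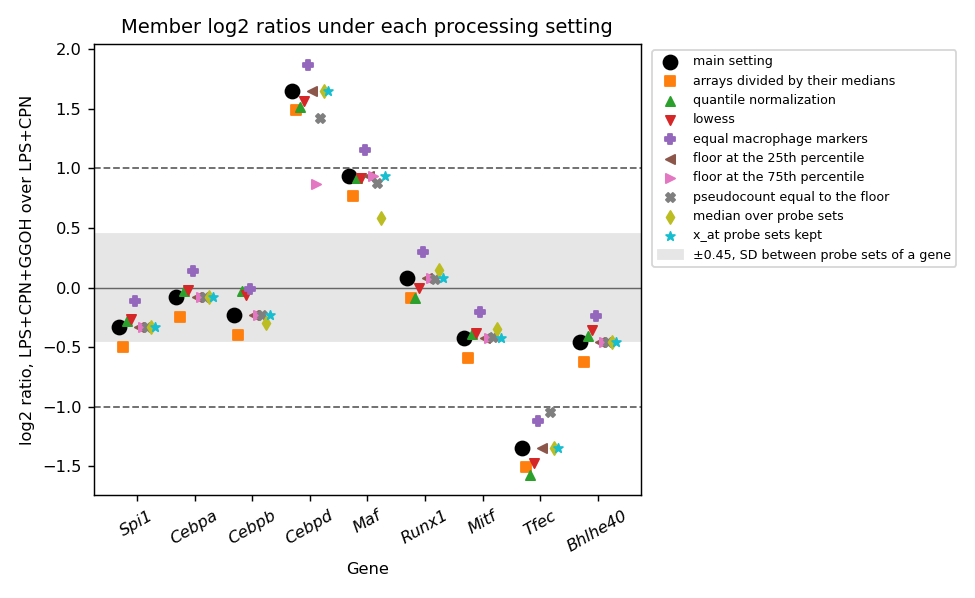
Log2 ratio of LPS+CPN+GGOH over LPS+CPN for each member under the main setting (large black points) and 9 alternatives (small symbols); grey band, the probe-set SD of 0.45; dashed lines, 2-fold. Tfec stays below -1 wherever it was measured, Cebpd is above 1 except as a bound of 0.87 with the highest floor, and Maf is above 1 under marker scaling alone (equal macrophage markers in the key).

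Bhlhe40, a basic helix-loop-helix repressor of the circadian and cytokine networks, had 1 probe set (1418025_at). It read 9454 with LPS+CPN and 6868 with GGOH, a log2 ratio of -0.46, about the size of the probe-set SD. The ratio was -0.63 to -0.24 over the scalings. Its paralog Bhlhe41 had a ratio of -0.13. Of 14 measured BHLHE40 partner and clock genes none passed 2-fold at the deposited scaling, beside 5.50% higher and 1.66% lower of all measured genes. The largest ratios were those of Nr1d1 (97.4 and 193, log2 ratio 0.99), a nuclear receptor of the clock, and of the clock-controlled factor Dbp (193 and 348, log2 ratio 0.85), and 2 genes passed 2-fold under marker scaling. The median of the list was -0.03.

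Of 16 measured ETS genes, the family of Spi1, 1 was at least 2-fold higher and 0 lower, beside 5.50% and 1.66% of all measured genes, with a median of 0.16 that became -0.01 under median scaling. The higher one was Etv5, a growth factor responsive gene, at least 3.75-fold higher and at the floor with LPS+CPN. Spib and Spic, the closest relatives of PU.1, were at least 1.60-fold higher (at the floor with LPS+CPN) and at a log2 ratio of -0.16. Among 23 measured PU.1 target genes the median was -0.21, beside -0.22 for the macrophage markers, with which it shares many genes; it was 0.005 under marker scaling. Itgam was the only one at least 2-fold apart, reading 312 with LPS+CPN and 646 with GGOH, and it no longer passed under median scaling, quantile normalization or lowess. Csf1r, the CSF1 receptor gene and a classical target of PU.1 and RUNX1, read 21459 with LPS+CPN and 15169 with GGOH, a log2 ratio of -0.50, and its 3 probe sets ranged up to 0.03.

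Of 22 other measured transcription factors of macrophages, 3 were at least 2-fold higher and 2 lower, beside 5.50% and 1.66% of all measured genes. Their median was -0.12 (0.10 under marker scaling). Gata6, the factor of resident peritoneal macrophages and also of mesothelial cells, had a log2 ratio of 2.08, from 99.1 with LPS+CPN to 420 with GGOH, and of 0.92 on its other measured probe set. Id3, an inhibitor of helix-loop-helix factors, read 911 and 3164 (1.80). Zeb2, a repressor that maintains tissue macrophage identity, read 1313 and 3295 (1.33), but its 5 probe sets ranged from -0.17 to 1.33. Klf4 read 7406 and 2023 (-1.87), and the interferon-responsive Batf2 read 662 and 299 (-1.14). Batf2 was short of 2-fold under marker scaling.

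**Figure D4:**
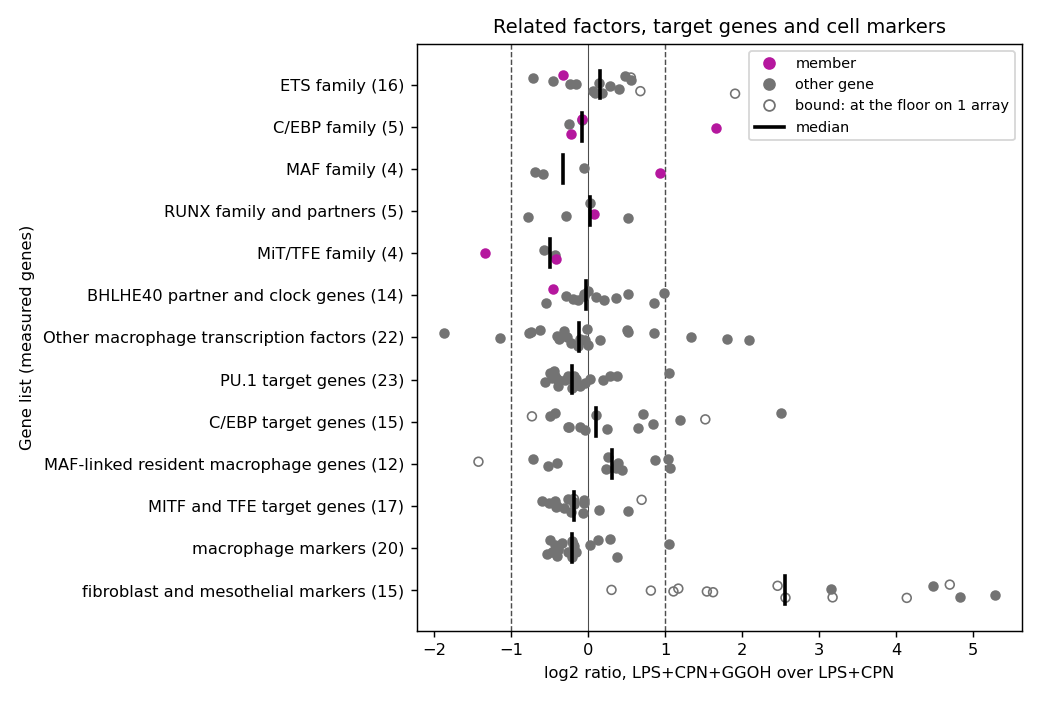
Log2 ratio of LPS+CPN+GGOH over LPS+CPN for the measured genes of each list (number in brackets), with members in magenta, bounds as open circles and the list median as a bar; dashed lines mark 2-fold. Medians of the factor and target lists lie between -0.50 and 0.31, and that of the fibroblast and mesothelial markers is 2.56.

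Measures of the whole arrays differed between the treatments as well. Higher genes made up 76.8% of all genes past 2-fold (634 higher and 191 lower). That share was 61.4% under median scaling, 62.5% under quantile normalization and 91.1% under marker scaling, a scaling that moved the median of all genes from -0.01 to 0.19. The ratio of 3' to 5' signal of the control transcripts was 2.44 with LPS+CPN and 1.24 with GGOH for Actb, and 1.98 and 0.96 for Gapdh. The part of this difference in RNA quality in the members' ratios was not tested.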

How the data were processed

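Signals of 2 arrays, 1 per treatment, were used as deposited. The authors' table gives 1 signal intensity per probe set on a linear scale; per the submitters' processing notes MAS5 made it (version and target not given in the sources used here). No other upstream step was used.

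Of 45037 non-control probe sets, 34945 had 1 symbol in the platform annotation and were used. Cross-hybridizing _x_at probe sets did not enter gene values (18093 genes). A gene's value came from its brightest probe set by mean log2 signal, with a floor at the 50th percentile (59.9), in Python 3.11.15 with pandas 2.3.3. A gene at the floor on 1 array has only a bound. Genes at least 2-fold apart were counted. The steps were tested on simulated data with known changes, all past 2-fold and in genes well above the floor. The simulated noise was smaller than the probe-set SD. Smaller changes, and changes in genes near the floor, were not covered. No test or error between replicates was possible.

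The members, the 18 gene lists and the alternatives were chosen with earlier results of these data known. From each list every gene at least 2-fold apart was named, up to 4 per direction, or otherwise the largest 2; the measured genes of the MiT/TFE, C/EBP, RUNX and MAF families were all named. Csf1r, the C1q genes, Mertk, Timd4, Marco, Spib, Spic, Lum, Bhlhe41 and Ctsb were named outside this rule, after their values were seen. So were Tyr, Mlana, Trpm1, Pmel, Dct, S100a8, S100a9 and the Cd3 genes. No gene was named for a pattern like a member's, since each gene has 1 ratio.

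Alternatives were median scaling, quantile normalization, lowess (span 0.4, statsmodels 0.14.6), marker scaling, the 25th or 75th percentile as floor, a pseudocount in its place, the median over probe sets, and _x_at probe sets kept. The number of arrays limits the precision. Promoter windows came from RefSeq (GRCm38.p6).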

Additional observations from a re-analysis of the deposited data

How the results depend on the processing

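Over 9 other settings, no member ratio that was past 2-fold changed sign. Of the member ratios, only that of Cebpd moved by more than the probe-set SD (0.45), to 0.87 as a bound once the floor was the 75th percentile; Tfec was not measured there, and members at least 2-fold apart numbered 0 higher and 0 lower, with 126 genes higher and 88 lower. Under marker scaling 2 members were higher, Cebpd and Maf, and 89 genes were at least 2-fold lower. Genes at least 2-fold lower numbered 332 under median scaling and 304 under quantile normalization. A floor at the 25th percentile gave 1658 genes higher and 1127 lower. Signs of small ratios turned for Cebpa (0.14 under marker scaling) and Runx1 (-0.09 under median scaling), and for other list genes with small ratios, Ddit3, Mafk, Cbfb, Bhlhe41 and Spic among them; the causes of these shifts were not tested. Signals near the floor, as in the dimmer Maf and Runx1 probe sets, limit what can be read from them. No paired analysis was possible because each treatment has 1 array.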

Other observations

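Markers of T, NK and B cells were mostly at the floor. Among T and NK cell markers, 1 of 8 on the array was measured, the cytokine receptor gene Il7r. It read 19902 with LPS+CPN and 14869 with GGOH, a ratio of -0.42 on the log2 scale, but its other probe set had 0.90. The T cell receptor complex genes Cd3d, Cd3e and Cd3g were at the floor on both arrays. Among B cell markers 1 of 7 was measured, the kinase gene Blk, at least 1.70-fold higher from the floor. Of 10 neutrophil markers 5 were measured. The collagenase gene Mmp8 read 62.7 with LPS+CPN and 136 with GGOH. S100a8 read 4282 and 2216 (-0.95), while S100a9 was at the floor on both arrays. Of 7 dendritic cell markers 5 were measured, among them Zbtb46 (89.2 and 140, log2 ratio 0.65) and Itgax (1313 and 914, log2 ratio -0.52).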
